A study of Mus musculus with 4 samples.

Results

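Helper and killer T cells are told apart by their co-receptors, CD4 and CD8, which bind major histocompatibility complex class II and class I molecules beside the T cell receptor. Precursors in the thymus carry both co-receptors and then keep 1 of them. The zinc finger factor ThPOK, encoded by Zbtb7b, directs cells to the CD4 fate, and RUNX3 directs them to the CD8 fate. Cd4 is known to be controlled by an enhancer upstream of the gene and by a silencer in its first intron, which keeps the gene off in CD8 T cells. The genes of both CD8 chains, Cd8a and Cd8b1, lie side by side and are controlled by a series of enhancers around and between them.

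The accessible regions of 4 loci were examined: Cd4 and Zbtb7b on the CD4 side, and Cd8a and Cd8b1 on the CD8 side. A region was a member when it overlapped the gene body or the 40 kb on either side of it. This gave 26 distinct regions of the 64525 in the list, 21 on the CD4 side and 5 on the CD8 side. ATAC-seq, which maps open DNA by where a transposase can insert, was performed on naive CD4 T cells from spleen and pLN of mice: 2 libraries were labelled WT and 2 were labelled DDX55 KO, a knockout of an RNA helicase gene. The sources used here do not give strain, age, the way the knockout was made or the tissue in which the gene was deleted, nor whether the libraries of a genotype came from separate animals. The list pools all 4 libraries and holds only positions on mouse build mm10, so genotypes were not compared here, no value has a replicate error, the depth behind a region is unknown, and differences between loci are given as descriptions without a test.

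The CD4-side loci held more accessible regions than the CD8 loci, although most of the excess lay at the ends of neighbouring genes. Cd4 had 12 regions in its window of 103.6 kb, or 11.6 per 100 kb, a density above that of 97.6% of the 21887 protein-coding genes measured in the same way. Zbtb7b had 9 regions, or 9.37 per 100 kb, above 93.5% of genes. Cd8b1 had 5 regions, or 5.28 per 100 kb, above 68.8% of genes. Cd8a had 3 regions, or 3.50 per 100 kb, above 49.1% of genes and close to the median gene at 3.56. The windows of Cd8a and Cd8b1 overlap, and all 3 regions of Cd8a are among the 5 of Cd8b1. A count of this kind is not rare in itself: 89.1% of protein-coding genes had at least 1 region in such a window.

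**Figure D1:**
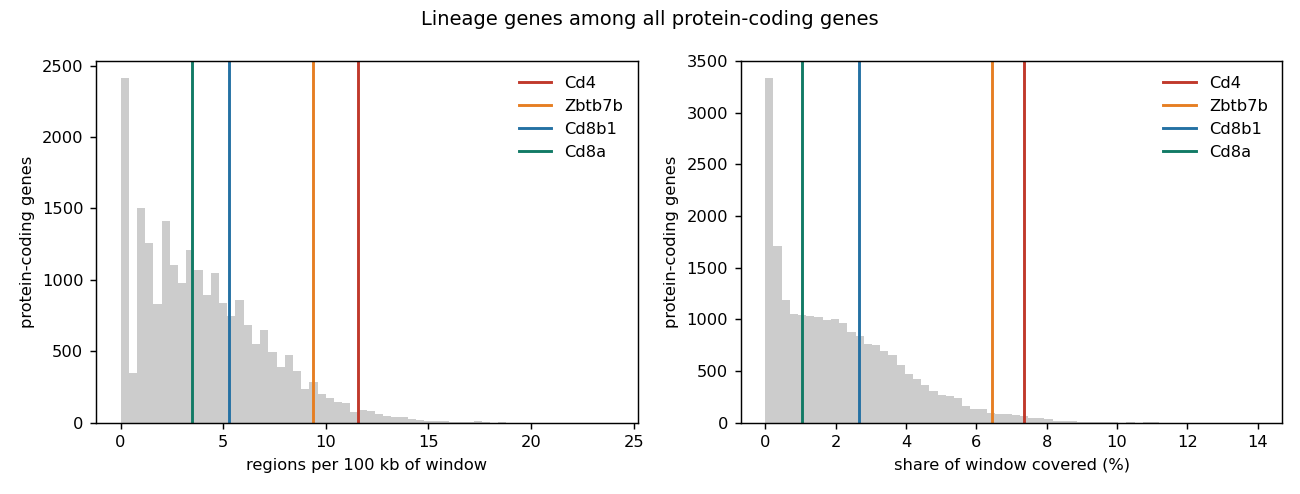
Histograms of all protein-coding genes by the number of accessible regions per 100 kb of gene and 40 kb either side (left) and by the share of that window covered by regions in percent (right); lines mark the 4 genes. Cd4 (11.6 per 100 kb) and Zbtb7b (9.37) lie in the right tail, and Cd8a (3.50) lies near the middle; 10 genes on the left and 4 on the right fall beyond the axis.

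The order was the same by bases covered. Regions covered 7.36% of the Cd4 window and 6.45% of the Zbtb7b window, above 98.9% and 97.5% of genes. They covered 2.68% of the Cd8b1 window and 1.06% of the Cd8a window, above 66.9% and 35.9% of genes. Taken as sides, the Cd4 and Zbtb7b windows had 10.5 regions per 100 kb over 199.6 kb, and the joined CD8 window (chr6:71282788-71419171) had 3.67 per 100 kb over 136.4 kb, a ratio of 2.87. For the share of bases covered, 6.92% against 1.86%, the ratio was 3.73. In the gene bodies alone the order of single genes differed, with 25 regions per 100 kb at Zbtb7b, 17.4 at Cd8a, a short gene with 1 region, 17 at Cd4 and 6.8 at Cd8b1.

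The sequences before the start sites are shown first, because they mark where the genes begin and where Cd8a had no region. RefSeq promoter sequences (GRCm38.p6) matched 2 of the 4 genes, with 2 start sites for Zbtb7b and 1 for Cd8a; Cd4 and Cd8b1 have no entry in the table. The 250 bases before each start site were searched on both strands for 8 short motifs. The motif searched for RUNX factors was TGTGGT, that for ETS factors was AGGAAG, and that for TCF and LEF factors was CTTTGA. The GATA motif searched was AGATAA, the E-box was written as CAGNTG, and the MYB motif as AACGG. The motif of SP and KLF factors was GGGCGG, and the TATA box was searched as TATAAA. None of the 8 contains another. For Cd8a the whole stretch is printed, chr6:71373177-71373426 on the plus strand. It is all in lower case because none of the 8 motifs matched.
Cd8a: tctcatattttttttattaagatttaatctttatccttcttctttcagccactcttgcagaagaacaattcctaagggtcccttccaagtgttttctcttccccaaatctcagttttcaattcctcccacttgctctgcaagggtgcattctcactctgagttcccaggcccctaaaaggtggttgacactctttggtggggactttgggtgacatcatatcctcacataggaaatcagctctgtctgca

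For Zbtb7b, read from the minus strand, both windows lie inside the annotated gene, and only 30 bases around 3 matches are shown, with the motif in capitals. The upstream start site gave an ETS match (chr3:89393396-89393425) and 2 SP/KLF matches, the farther of them at chr3:89393438-89393467. The downstream start site, inside the gene, gave the only RUNX match (chr3:89387743-89387772).
Zbtb7b upstream start, ETS: ggatgaaaaaccAGGAAGtgacagagggtg
Zbtb7b upstream start, SP/KLF: tatgtccttattGGGCGGagggagggggtg
Zbtb7b downstream start, RUNX: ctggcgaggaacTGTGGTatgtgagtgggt

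Such matches are common or fairly common among the 21263 promoters of protein-coding genes: 28.5% hold the ETS motif, 42.6% the SP/KLF motif, 42.0% the E-box and 12.4% the RUNX motif in the same 250 bases. The upstream Zbtb7b start also had 1 E-box match, and the downstream start had 1 ETS match on the opposite strand and 1 SP/KLF match. The TCF/LEF, GATA, MYB and TATA motifs had no match at any of the 3 start sites and are held by 12.7%, 8.81%, 16.01% and 11.6% of promoters. A match is a string of letters and is not evidence of binding. The stretches differed in CpG number: 0 at Cd8a, and 7 and 5 at the upstream and downstream starts of Zbtb7b.

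**Figure D2:**
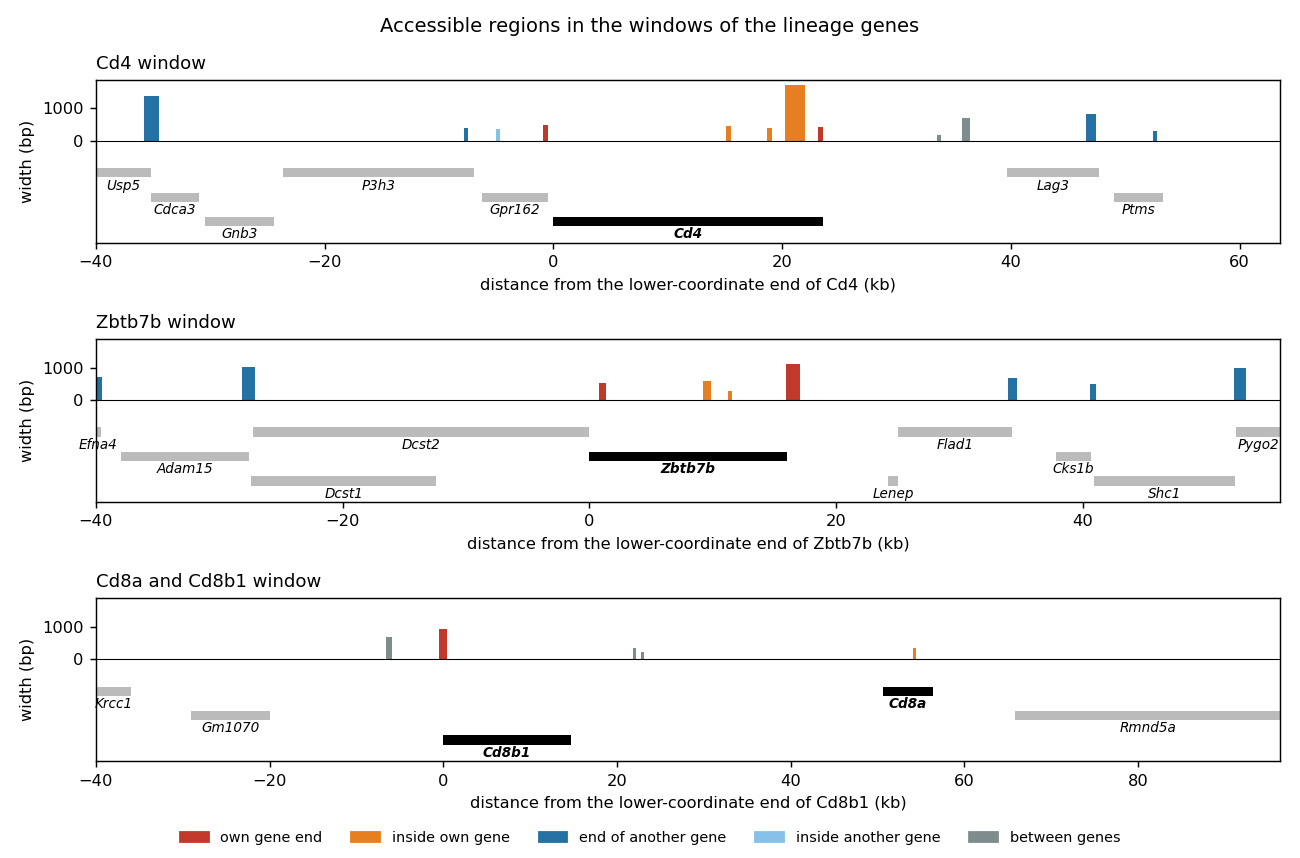
Accessible regions (bars; height is the region's width in bp, and bars are drawn to scale along the axis with a minimum of 0.35 kb) and protein-coding genes (black for the 4 lineage genes, grey for neighbours) against distance in kb from the lower-coordinate end of Cd4, Zbtb7b or Cd8b1. The Cd4 gene shows 4 regions near its higher-coordinate end, among them the widest of all 26 (1740 bp), and the stretch from Cd8b1 to Cd8a shows 2 narrow ones.

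Cd4 (gene ID 12504, chr6:124864693-124888247) encodes the co-receptor of helper T cells. The gene is known to be transcribed toward lower coordinates, so that its higher-coordinate end is its start; the gene table used here holds no strand. A region of 416 bp at chr6:124887841-124888256 overlapped this end. The next region into the gene, chr6:124884946-124886685, began 1.56 kb from the end and was 1740 bp wide. It was the widest of the 26, and only 29 of the 24564 regions inside genes and away from gene ends were wider, against a median of 277 bp for that class. The known silencer lies in the first intron, on this side of the gene; no file used here gives its position, so overlap with it was not tested.

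Further into Cd4, regions of 398 bp (chr6:124883364-124883761) and 455 bp (chr6:124879794-124880248) lay 4.49 and 7.999 kb from the higher-coordinate end. Together the 4 regions that overlap the gene fell within 8.46 kb and covered 35.6% of that stretch. They covered 12.7% of the whole gene, and 87.9% of protein-coding genes had fewer than 4 regions in the gene. The rest of the gene, 15.1 kb at its lower-coordinate end, held no region.

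Outside the Cd4 gene, 2 regions lay in the 16.1 kb between Cd4 and Lag3, which encodes an inhibitory receptor that also binds class II molecules. They were chr6:124900399-124901097, 699 bp wide and 12.2 kb beyond the higher-coordinate end, and chr6:124898334-124898513, 180 bp wide and 10.1 kb beyond it. The wider of them was broader than 92.9% of regions outside genes. It lies on the side where the upstream enhancer of Cd4 is known to be, and overlap with that enhancer was not tested. At the other end of Cd4, a region of 489 bp (chr6:124863754-124864242) lay 0.451 kb outside the gene and overlapped the end of Gpr162, an orphan receptor gene. It was counted at an end of both genes.

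The other 5 regions of the Cd4 window belonged to neighbouring genes. The widest, 1373 bp at chr6:124828879-124830251, overlapped ends of both Usp5, which encodes a ubiquitin-specific protease, and Cdca3, a cell division gene. Lag3 had a region of 823 bp near its higher-coordinate end (chr6:124911280-124912102), P3h3 had one of 384 bp and Ptms one of 316 bp within 1 kb of an end, and a region of 351 bp lay inside Gpr162. Of the 7 coding neighbours in this window, 6 had a region within 1 kb of an end, against 52.6% of all protein-coding genes, and Gnb3 did not. The promoter table holds start sites for 3 of the 7, and 1 of these genes, Cdca3, had a region over its tabulated promoter, against 46.8% of all promoters. More neighbours fell in the Cd4 window than in that of 94.3% of protein-coding genes.

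Zbtb7b (gene ID 22724, chr3:89377644-89393673) encodes ThPOK. Like Cd4 it had 4 regions in the gene, which covered 8.77% of it. At its start, the higher-coordinate end, a region of 1107 bp (chr3:89393633-89394739) overlapped the end of the gene by 41 bases and extended outward. It also lay inside the noncoding gene Gm15417 or within 1 kb of an end of it. This region began 0.255 kb upstream of the upstream start site in the promoter table, just short of the 300 bases the table gives for it. Inside the gene, a region of 583 bp (chr3:89386905-89387487) ended 0.184 kb downstream of the internal start site. Both start sites therefore had a region close by but none over the tabulated promoter, which 46.8% of promoters of protein-coding genes had.

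The remaining regions in Zbtb7b were 266 bp at chr3:89388932-89389197, between the start sites, and 516 bp at chr3:89378446-89378961, 0.802 kb inside the lower-coordinate end. Dcst2 ends directly beside that end of Zbtb7b, so the latter region also counted at an end of Dcst2. No region of the window lay between genes. The other 5 all overlapped ends of neighbours: Efna4, an ephrin gene (698 bp), the joint ends of Adam15, Dcst1 and Dcst2 (1010 bp), Flad1, of flavin cofactor synthesis (678 bp), the facing ends of Cks1b and Shc1 (497 bp), and those of Shc1 and Pygo2 (1004 bp). Of the 9 coding neighbours, 8 had a region within 1 kb of an end, against 52.6% of all protein-coding genes. The promoter table holds all 9, and 6 had a region over at least 1 of their promoters. Counted per promoter and not per gene, the share over all coding genes was 46.8%. Zbtb7b had more neighbours than 97.8% of protein-coding genes.

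Cd8b1 (gene ID 12526, chr6:71322788-71337492) encodes the beta chain of CD8. It had a single region in the gene, 929 bp at chr6:71322273-71323201, which overlapped the lower-coordinate end, known to be the start of the gene. This was the widest region of the CD8 loci and broader than 71.0% of regions at gene ends. A region of 699 bp (chr6:71316145-71316843) lay 5.95 kb outside that end. Its width equals that of the wider region between Cd4 and Lag3, so it too was broader than 92.9% of regions outside genes. Both regions lay inside the noncoding gene Gm38828 or within 1 kb of an end of it. The start of Cd8b1 was thus accessible in a list made from cells purified as CD4 T cells; which libraries or cells gave the region cannot be told from it.

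Cd8a (gene ID 12525, chr6:71373427-71379171) encodes the alpha chain, which forms CD8 alone or with the beta chain. It had no region within 1 kb of either end. Its only region inside the gene, 333 bp at chr6:71376833-71377165, lay 3.41 kb from the start site and 2.01 kb from the other end. Of all coding start sites, 58.7% had a region as near or nearer. Few promoters poor in CpG had a region: 6.58% of those with 0 to 3 CpG, the class of Cd8a, against 36.8% of those with 4 to 10, the class of both Zbtb7b starts, and 76.5% of those with 20 or more. The part of CpG number in the difference between the genes was not tested.

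The 35.9 kb between Cd8b1 and Cd8a, where several CD8 enhancers are known to lie, held 2 regions. They were 351 bp (chr6:71344673-71345023) and 222 bp (chr6:71345635-71345856), lay 0.611 kb apart, and were 7.18 and 8.14 kb beyond the end of Cd8b1. No region followed for 31.0 kb, up to the one inside Cd8a. After that one a gap of 63.3 kb reached to the far end of Rmnd5a, longer than 82.3% of gaps between neighbouring regions, whose median is 18.5 kb. No region of the joined CD8 window lay at an end of a neighbouring coding gene, and the window held parts of only 3 such genes, Krcc1, Gm1070 and Rmnd5a. Of these, 2 had a region within 1 kb of an end and over a promoter of the table, Krcc1 and Rmnd5a, in both cases outside the window. The shares were 52.6% of all protein-coding genes for an end and 46.8% of all promoters, and 3 neighbours are too few to set apart from them.

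Neighbouring genes thus entered the comparison of the 2 sides unequally. Of the 21 regions on the CD4 side, 11 lay within 1 kb of an end of a coding gene other than the 4, against 0 of 5 on the CD8 side. Over the whole list, 11867 of 64525 regions lay within 1 kb of an end of any coding gene. The 5 regions of the CD8 side are too few to set apart from that share. Noncoding genes did not enter these counts. Without those 11, the CD4 side had 5.01 regions per 100 kb against 3.67, a ratio of 1.37 in place of 2.87, and covered 3.10% against 1.86%. When regions that overlap one of the 4 genes were kept whatever their neighbour, a choice made after seeing the data, the ratio was 1.5. On that count Cd4 had 6.76 per 100 kb, Cd8b1 5.28, Zbtb7b 4.17 and Cd8a 3.50, above 92.5%, 84.5%, 73.6% and 65.1% of protein-coding genes counted likewise. Of the 9 regions at Zbtb7b, 5 lay at ends of neighbours and outside the gene, and without them its density was below that of Cd8b1.

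**Figure D3:**
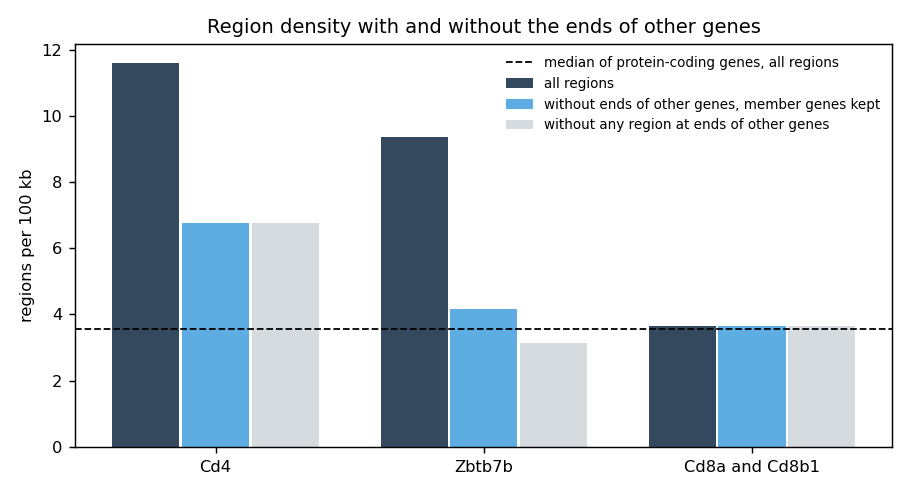
Accessible regions per 100 kb (bars, from 0) in the Cd4, Zbtb7b and joined Cd8a and Cd8b1 windows, for all regions, without regions at ends of other coding genes unless they overlap one of the 4 genes, and without all of them. Cd4 stays highest (11.6, then 6.76), while Zbtb7b goes from 9.37 to 4.17 and 3.12, on either side of the 3.67 of the CD8 window.

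Width also differed among the loci. The median region was 435.5 bp wide in the Cd4 window (180 to 1740 bp), 678 bp at Zbtb7b (266 to 1107 bp) and 351 bp in the joined CD8 window (222 to 929 bp), against 294 bp over the whole list. The regions at ends of genes had a median of 715 bp over the list, and those outside genes 251 bp. Over the list, 11867 of 64525 regions lay at an end of a coding gene. The Zbtb7b window had 7 of its 9 regions at ends of genes. In the CD8 window 1 of 5 lay at an end and 3 lay between coding genes.

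**Figure D4:**
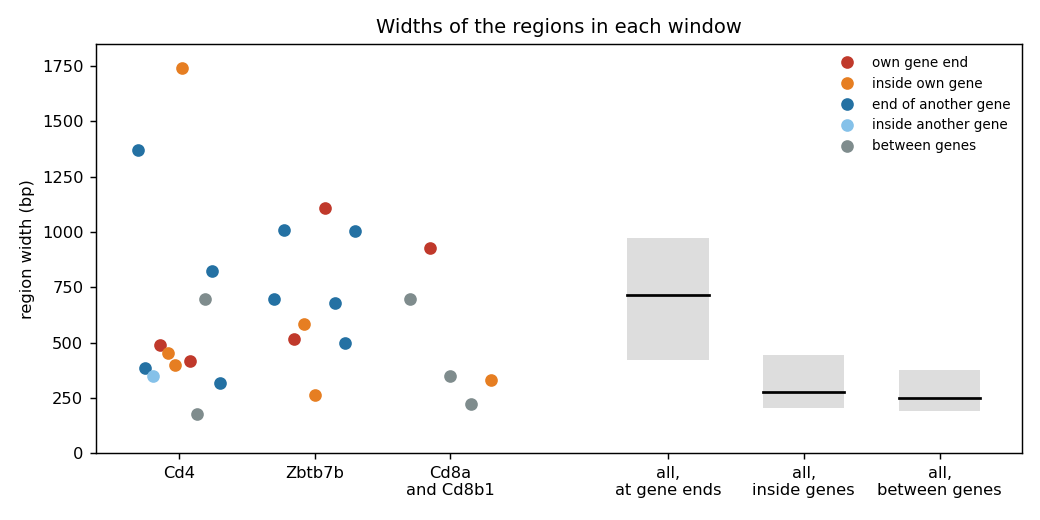
Width in bp of every region in the 3 windows (points, coloured by place, in chromosome order within a window) beside the middle 50% (grey) and median (line) of all regions by place. The widest point is the 1740 bp region inside Cd4, far above the 277 bp median of regions inside genes.

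Of the 4 genes, 3 had a region within 1 kb of an annotated end, against 52.6% of all protein-coding genes, and all 4 had a region in the gene, against 65.5%. With 4 genes these counts are a description only. Cd4 and Zbtb7b had a region at both ends, as had 5.92% of genes, although the lower-coordinate region of each was shared with a coding neighbour. Cd8b1 had one at its start and Cd8a at neither end.

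Other genes of the lineage choice had regions more often than not. Of 20 regulators of the choice, 16 had a region at an end (80.0%, against 52.6%) and all 20 had one in the gene (against 65.5%). Their median density was 7.98 per 100 kb against 3.56 for all genes. The CD8 fate factor Runx3 had 12 regions in its window, its partner Cbfb had 8, and the largest counts were 25 at Runx1 and Ets1 and 24 at Tox, a factor needed for CD4 T cell development. Gata3, Myb, Ets1 and Zbtb7a, a relative of Zbtb7b, had none at an end. The counts are not corrected for window length. Per 100 kb Tox had 6.23, below the median of the list, and Zbtb7a had 14.4, the highest of the list. Of 10 genes of the helper programme 8 had a region at an end (80.0%, against 52.6%), and Cd40lg, which gives B cell help, and Gata3 did not. All 10 had a region in the gene (against 65.5%), and their median density was 8.52. The largest counts were 18 in the window of Il2ra, 13 at St8sia6 and 11 each at Cd28 and Il6st. Per 100 kb Il2ra was the highest of the 10 at 13.8 and St8sia6 the lowest at 5.81. Of 12 genes of the cytotoxic programme 6 had a region at an end (50.0%), close to the 52.6% of all genes. In the gene, 8 of the 12 had a region, against 65.5% of all genes. Their median density of 6.16 per 100 kb was above the 3.56 of all genes. Prf1 and Gzmb, of the killing machinery, were among the 6, and Itgae, Gzma, Gzmk, Nkg7, Klrd1 and Klrk1 were not, although Itgae had 9 regions in its window and Klrd1 had 8.

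The labelled cell type was read against markers. All 11 naive T cell markers, among them Cd3e, Ccr7, Lef1 and Tcf7, had a region at an end, against 52.6% of all protein-coding genes. Their median density was 10.3 per 100 kb. Lef1 had 19 regions, and Ccr7 and Tcf7 had 16 each. None of 5 B cell markers had one at an end (Cd79a, Cd79b, Ms4a1, Pax5, Blk), although Pax5 had 5 regions inside the gene and Blk 2. Of 5 macrophage and monocyte markers 2 had one at an end (40%), Csf1r and Itgam. Of 3 natural killer markers 1 did (33.3%), Eomes, which CD8 T cells also use. These lists are too short to set apart from the 52.6% of all genes. The median density was 3.22 per 100 kb for the B cell list, 2.84 for the macrophage and monocyte list and 6.82 for the natural killer list, against 3.56 for all genes. Within these lists the counts ranged widely: Klrb1c and Itgam had 8 regions in the window and Cd68 and Cd79b had 6, while Lyz2 and Ncr1 had 0. The Cd4 window, at 11.6 per 100 kb, was denser than 8 of the 11 naive T cell markers, and Cd8a, at 3.50, was sparser than all 11, the lowest being Cd3e at 7.70. All these densities include regions at ends of neighbouring genes. The genes of a list are not independent: Cd3e, Cd3d and Cd3g are all on chromosome 9, and a region near several listed genes counts for each. Some genes, such as Lef1 and Tcf7, also stand in another list.

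**Figure D5:**
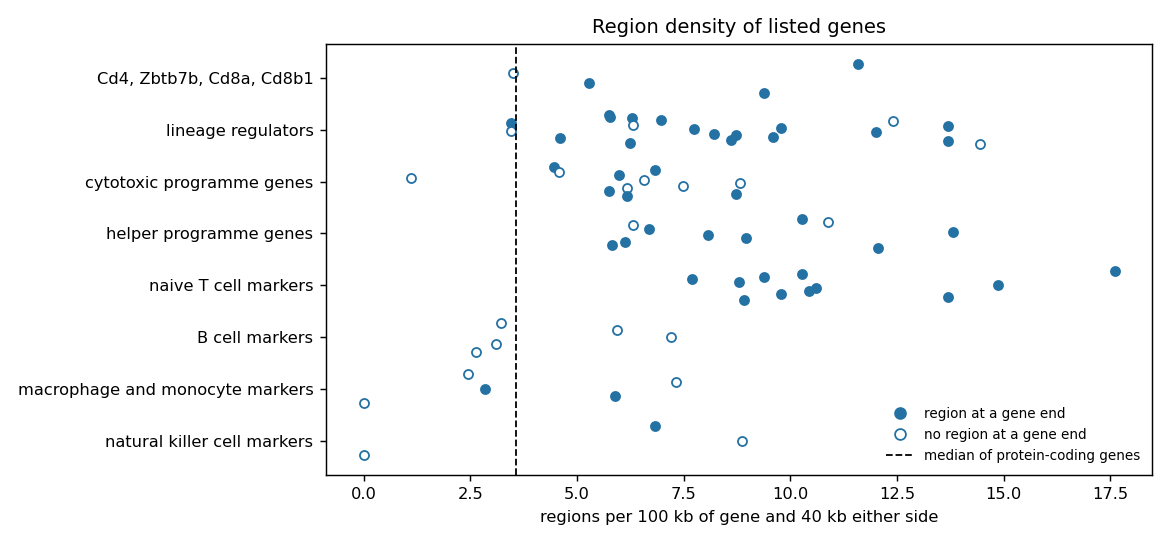
Accessible regions per 100 kb of gene and 40 kb either side for each gene (points) of the listed groups; filled points have a region within 1 kb of a gene end, and the dashed line is the median of all protein-coding genes (3.56). Cd8a lies by the line with an open point, Cd4 lies among the naive T cell markers, and the B cell markers are all open.

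For each gene, the closest patterns in the rest of the genome were found from 6 values, the number of regions and the bases covered in the lower 40 kb, the gene and the higher 40 kb, on a log2 scale. For Cd4, with 4, 4 and 5 regions in these parts, they were Gemin5, Celsr1 and Vps53, at distances of 0.54, 0.55 and 0.57. For Zbtb7b they were Oplah, Ikzf4 and Actn4 (0.53, 0.55 and 0.59). Cd8a, with 2, 1 and 0 regions, had nearer matches in Sim2, Serpinb1b and Kif26a (0.07, 0.15 and 0.15), and Cd8b1 had Mfap1a, Parp2 and Ddt (0.18, 0.26 and 0.31). A region across a gene end was counted in both parts, so the parts of Cd4 add up to more than the 12 regions of its window. The likeness is in layout alone, and gene length was not among the 6 values.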

How the data were processed

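The authors deposited 1 list of accessible regions for all 4 libraries, with 3 columns (sequence name, start, end) and no score or count (unit: other, positions in bases). Per the submitters' processing notes, fastp 0.12.4, Bowtie2, SAMtools 1.15.1 and MACS3 3.0.0b1 were used with mm10. The sources used here do not give their settings, the handling of duplicates and of the transposase offset, or the way the libraries' peaks were joined. Positions were converted to 1-based. Genes came from the RefSeq table of GRCm38.p6, the assembly mm10 names, which holds no strand; start sites and promoters came from a RefSeq promoter table of the same build.

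A region counted in a window on an overlap of at least 1 bp, and at a gene end within 1 kb of either annotated end. Gene ends and places were those of protein-coding genes, and noncoding genes were left out. Percentiles are over 21887 protein-coding genes of the assembled chromosomes. The genes with the closest patterns were ranked by Euclidean distance over log2(number + 1) and log2(bases + 100). Members and lists were chosen with earlier results of these data known; 2 listed marker genes are not reported here and were left out of the counts. Named regions and genes were all regions at the members, the neighbours with a region at an end, each list's 3 largest counts and its genes without a region at an end, and the 3 closest patterns. Other list genes were named as examples after their values were seen. Counting was tested on simulated regions. Alternatives were other flanks and end windows, region middles, wider or joined regions, and leaving out the ends of other genes. Analyses used Python 3.11.15 and matplotlib 3.10.9.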

Additional observations from a re-analysis of the deposited data

How the results depend on the processing

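No paired analysis was possible because the list carries no value per library. Of 68 recomputed values, 56 stayed within 1.5 times the reported one and 12 did not. The 56 include values that could not move: no gap in a window was shorter than 0.611 kb, so joining gaps of at most 200 bp changed nothing. Region middles also gave the reported values. None of the 68 turned the ratio between the sides below 1. Zbtb7b taken alone, without regions at ends of other coding genes, was at 3.12 per 100 kb, below the 3.67 of the joined CD8 window. Leaving out regions at ends of other coding genes gave 6.76 regions per 100 kb for Cd4, 3.12 for Zbtb7b, a density ratio of 1.37 and a cover ratio of 1.67. Keeping those that overlap one of the 4 genes, an alternative chosen after seeing the data, gave 6.76, 4.17, 1.5 and 1.81. In these settings fewer regions are counted by construction. In the gene body alone the density was 25 for Zbtb7b, 17.4 for Cd8a, a short gene with 1 region, 17 for Cd4 and 6.8 for Cd8b1, so that Cd8a was no longer below Cd4. With flanks of 20 kb Cd8a had 2.19, since the pair of regions between it and Cd8b1 falls outside. The other settings gave density ratios from 2.07 to 3.25 and cover ratios from 2.63 to 3.96. At 500 bp from a gene end, 0 natural killer markers had a region. Depth is unknown, so a stretch without a region was not shown to be closed.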

Other observations

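The density also differed outside the windows. In the 200 kb beyond each window, the lower-coordinate side held 22 regions at Cd4, 19 at Zbtb7b and 10 at the CD8 loci, and the higher-coordinate side held 12, 7 and 4. Coding genes in the same stretches numbered 12, 17 and 5 on the lower side and 8, 4 and 4 on the higher side. The surroundings of the CD8 loci were thus sparser in regions on both sides, and poorer in genes on the lower side; the part of gene number in this was not tested.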
